A study of Drosophila melanogaster with 2 samples.

Results

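The genes described here encode the proteins of the fly mitochondrial ribosome. They are the protein-coding genes of the Ensembl BDGP6 annotation whose symbol starts with mRpL (large subunit) or mRpS (small subunit), 73 of 13968 protein-coding genes on the chromosome arms, of which 47 are mRpL and 26 are mRpS genes. Atf6 binding near them was mapped by chromatin immunoprecipitation with sequencing in whole Drosophila melanogaster embryos aged 0 to 24 h. The embryos came from an Atf6-GFP strain with an insertion targeting Atf6, which yields Atf6 fused to eGFP, a green fluorescent tag, and the tag was pulled down with an anti-GFP antibody. The study has 1 group with 2 biological replicates of the same genotype and age, so there was no contrast between conditions. The labels do not say what drives the fusion or whether untagged Atf6 remains, and whole embryos of this age span mix all tissues and stages.

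The mitochondrial ribosome translates the few proteins encoded by mitochondrial DNA, which are core parts of the respiratory chain. Its RNA comes from mitochondrial DNA, while its proteins are encoded in the nucleus, made in the cytosol and imported. The small subunit reads the mRNA and the large subunit joins the amino acids. Subunit membership follows the fly symbols; in mammals the counterparts of mRpS30 and mRpS18A were found in the large subunit. Atf6 belongs to the leucine zipper factors, and vertebrate ATF6 sits in the membrane of the endoplasmic reticulum until cleavage frees it when unfolded proteins build up there.

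A gene was taken to have a promoter peak when the summit of a peak in the authors' thresholded list of both replicates (the main list, 5846 peaks) lay within 500 bp of any of its transcription start sites (TSSs). Signal is the authors' score for each peak. It has no stated scale and is compared only within 1 list. The thresholded lists are filtered by the irreproducible discovery rate (IDR), an estimate of how likely a region is not to recur between paired rankings. The ranked lists also hold regions that the thresholded lists leave out. The number of reads behind the lists is unknown.

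Of the 73 mitochondrial ribosomal protein genes, 23 had a promoter peak (31.5%), against 3019 of all 13968 protein-coding genes (21.6%). By subunit, 13 of 47 large-subunit genes (27.7%) and 10 of 26 small-subunit genes (38.5%) had one. The median signal of the 23 peaks was 119.9, and that over all genes with a promoter peak was 124.3, with 11 of the 23 above it. The peaks of the 13 large-subunit genes ran from 63.5 to 1687 with a median of 107.0, and those of the 10 small-subunit genes from 51.5 to 1449 with a median of 157.7, so the ranges of the subunits overlapped almost entirely. No test was run between the subunits, since genes are not replicates.

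The highest signal, 1687, lay at mRpL41, whose product is a large-subunit protein with no bacterial counterpart (2R, 15217577 to 15217940, rank 4 of the main list). Replicate 1 alone gave this promoter a signal of 1008 and replicate 2 alone 684, in each case in the replicate's own thresholded list. The summit lay 137 bp upstream of the TSS between genes, and the only other start site within 500 bp of it was that of a long noncoding RNA gene, lncRNA:CR44463. Of the 4 members with a signal above 1000, mRpL41 was the only one with no second protein-coding gene at the peak.

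Most of the other strong peaks sat in short gaps between genes that point away from each other. At mRpS23, a small-subunit protein particular to mitochondria, the peak had a signal of 1449 (2L, 13835293 to 13835637), with 823 in replicate 1 and 622 in replicate 2. Its summit was 384 bp upstream of mRpS23 and 108 bp upstream of CenG1A, which encodes a GTPase-activating protein for Arf. At mRpS10, whose bacterial relative sits in the head of the small subunit, the signal was 1442 (3R, 15229348 to 15229701), with 809 in replicate 1 and 629 in replicate 2. This summit lay 141 bp upstream of mRpS10 and 116 bp upstream of the arginine methyltransferase gene Art3. Both replicates thus put mRpL41, mRpS23 and mRpS10 highest of all members.

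The peak at mRpL23, whose bacterial relative lies at the exit of the peptide tunnel, had a signal of 1063 (3L, 2373446 to 2373774), with 615 in replicate 1 and 453 in replicate 2. Its summit was in the 5′ untranslated region of mRpL23, 65 bp downstream of the nearest TSS of that gene and 115 bp upstream of CG9004. A step below came mRpL24, also a protein of the tunnel exit in bacteria, with 507 (2L, 4945342 to 4945623), with 309 in replicate 1 and 196 in replicate 2. mRpS2, whose bacterial relative joins the head and body of the small subunit, had 418 (2L, 4850443 to 4850681), with 259 in replicate 1 and 162 in replicate 2. These peaks were shared with betaggt-I, a subunit gene of a protein prenylation enzyme, and with Mon1, a gene of endosome maturation.

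The gene mRpL20, whose bacterial relative acts early in assembly of the large subunit, had a peak of 372 (3L, 13018088 to 13018279), with 219 in replicate 1 and 144 in replicate 2. mRpS6, a protein of the small-subunit platform in bacteria, had 240 (3L, 4364370 to 4364529), with 141 in replicate 1 and 109 in replicate 2. mRpS7, a head protein that starts small-subunit assembly in bacteria, had 183 (2L, 10386296 to 10386691), with 122 in replicate 1 and 57.1 in replicate 2. The neighbours at these peaks were Icmt, a carboxyl methyltransferase gene, the membrane-curvature gene Cip4 and the cell cycle kinase gene Cdk1.

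**Figure D1:**
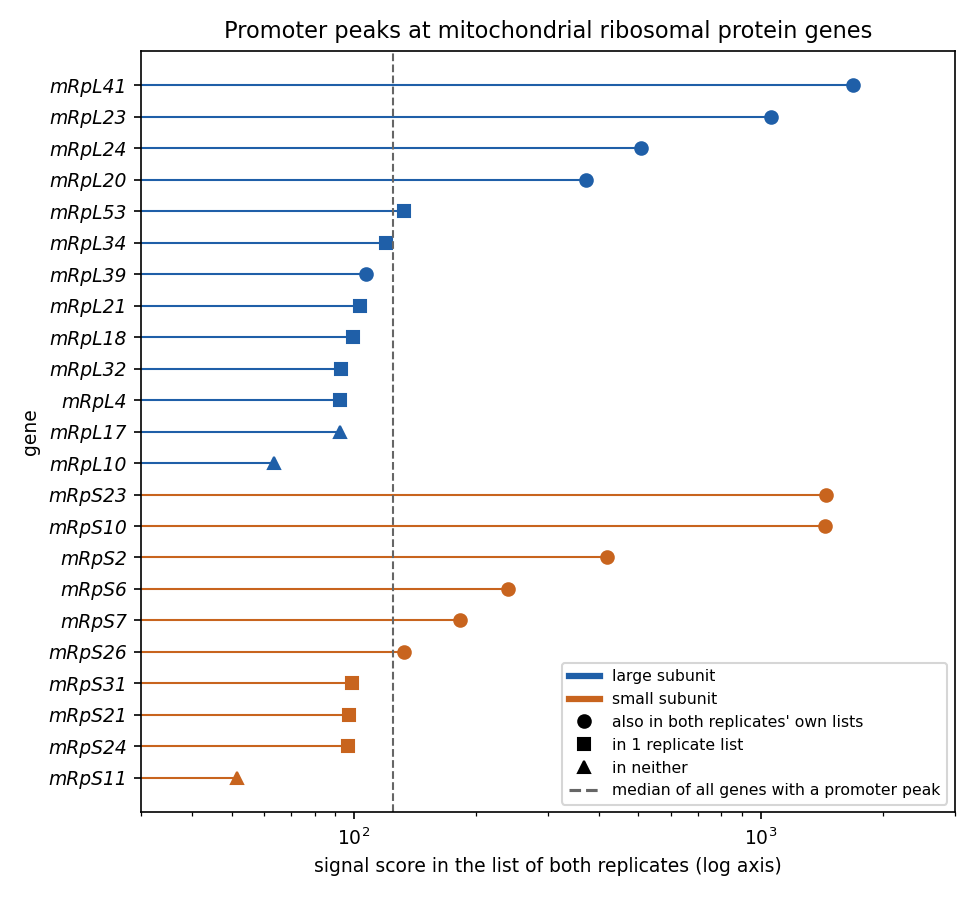
Signal score of the promoter peak in the list of both replicates (log axis) for the 23 mitochondrial ribosomal protein genes that had one, large subunit above small subunit, each sorted by signal. Marker shapes show how many of the replicates' own thresholded lists also held a promoter peak; the dashed line is the median over all genes with a promoter peak (124.3), and 11 of the 23 genes lie above it.

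The summit sequences are shown because the members with the strongest peaks share a composition there. Each window is the 101 bases centred on a summit, on the strand of the mitochondrial ribosomal protein gene, from RefSeq's copy of Release 6, whose coordinates are those of dm6. Every window given overlaps no annotated exon. The windows of mRpL41, mRpL34, mRpL18 and mRpL53 were left out whether or not they overlap an exon. The window of mRpL41, the member with the highest signal, did not hold the word AATTAA. The windows shown for the strongest members thus do not stand for all of them. Capitals mark the word AATTAA and its reverse complement TTAATT, which can overlap.
mRpS23, chr2L:13835406-13835506, minus strand: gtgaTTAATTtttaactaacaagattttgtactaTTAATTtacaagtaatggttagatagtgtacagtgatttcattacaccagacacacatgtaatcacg
mRpS10, chr3R:15229474-15229574, plus strand: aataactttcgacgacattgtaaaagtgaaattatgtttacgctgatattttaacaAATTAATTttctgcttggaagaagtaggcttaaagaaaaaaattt
mRpL24, chr2L:4945435-4945535, minus strand: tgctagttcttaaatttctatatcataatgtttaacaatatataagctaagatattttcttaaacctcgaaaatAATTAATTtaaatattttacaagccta
mRpS2, chr2L:4850511-4850611, minus strand: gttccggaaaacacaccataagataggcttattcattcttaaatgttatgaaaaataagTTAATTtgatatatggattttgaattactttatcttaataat
mRpL20, chr3L:13018135-13018235, minus strand: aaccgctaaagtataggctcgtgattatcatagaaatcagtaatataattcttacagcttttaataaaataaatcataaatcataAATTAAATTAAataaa
mRpS6, chr3L:4364420-4364520, plus strand: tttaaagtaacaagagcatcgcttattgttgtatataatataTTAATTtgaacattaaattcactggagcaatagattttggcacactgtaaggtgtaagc
mRpS7, chr2L:10386444-10386544, plus strand: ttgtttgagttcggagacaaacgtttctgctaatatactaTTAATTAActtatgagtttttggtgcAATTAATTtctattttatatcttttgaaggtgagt
For members with weaker peaks, the following 5 exon-free windows are given. The windows of mRpS26, mRpS21, mRpS24 and mRpL32 are exon-free too but are not shown. The G and C content of the 5 runs from 21.8% (mRpS31) to 39.6% (mRpL4 and mRpL17 each).
mRpS31, chr3L:16004993-16005093, plus strand: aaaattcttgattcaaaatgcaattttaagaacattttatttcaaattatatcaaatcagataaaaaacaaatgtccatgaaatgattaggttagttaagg
mRpL10, chr2L:203625-203725, plus strand: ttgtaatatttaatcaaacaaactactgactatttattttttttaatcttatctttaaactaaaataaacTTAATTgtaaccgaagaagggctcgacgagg
mRpL39, chr3L:14999705-14999805, minus strand: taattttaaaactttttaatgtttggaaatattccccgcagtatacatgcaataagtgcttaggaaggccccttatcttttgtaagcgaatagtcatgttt
mRpL4, chr2L:16329195-16329295, minus strand: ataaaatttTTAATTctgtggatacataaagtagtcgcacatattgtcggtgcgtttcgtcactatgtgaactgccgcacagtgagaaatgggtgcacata
mRpL17, chr3L:264389-264489, plus strand: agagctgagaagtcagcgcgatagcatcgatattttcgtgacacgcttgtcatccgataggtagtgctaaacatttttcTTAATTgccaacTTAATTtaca

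The strongest member peaks lay on sequence poor in G and C. Windows of the 9 members with a signal above 150 held 19.8% to 29.7% G and C, with a median of 23.8%, against a median of 29.7% over the 857 promoter peaks above 150. Windows of the other 14 members held 21.8% to 61.4% with a median of 36.1%, against 41.6% over the 1842 promoter peaks at or below 150. The AT-rich end of that range included mRpS31 at 21.8% and mRpL10 at 25.7%, so a low G and C content also occurred at weak peaks. At the other end were mRpL18 at 61.4%, mRpS11 at 58.4% and mRpL53 at 56.4%. Across the 23 members Spearman's rho between signal and G and C content was -0.50, and across all 2699 promoter peaks of the main list it was -0.45; the points share libraries and peak calling. The split at 150 was chosen after the values were seen.

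The word AATTAA lay within 50 bp of the summit, on either strand, at 13 of the 23 member peaks (56.5%), against 20.4% of all 2699 promoter summits and 13.2% of windows 500 bp to each side of those. It was present at 8 of the 9 member peaks above 150, the exception being mRpL41, against 29.9% of all promoter peaks above 150. Among the 442 promoter peaks above 150 whose G and C content was no higher than that of these 9 members, 39.8% held it. At the weaker member peaks it was present at 5 of 14, against 16.0% of all weaker promoter peaks. From 250 bp before to 50 bp after the gene's start, the word was in 45 of the 73 promoters (61.6%), against 43.2% of all. It was in the promoters of 16 of the 23 members with a main-list peak, against 46.2% of all 3019 genes with a promoter peak. Of the 50 members without such a peak, 29 held it. The word was chosen after these sequences had been read, so its count at the members is a description of them. An alternative chosen after the data were seen, a window of 25 bp in place of 50 bp, left it at 8 of the 23 members, against 10.7% of all promoter summits.

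**Figure D2:**
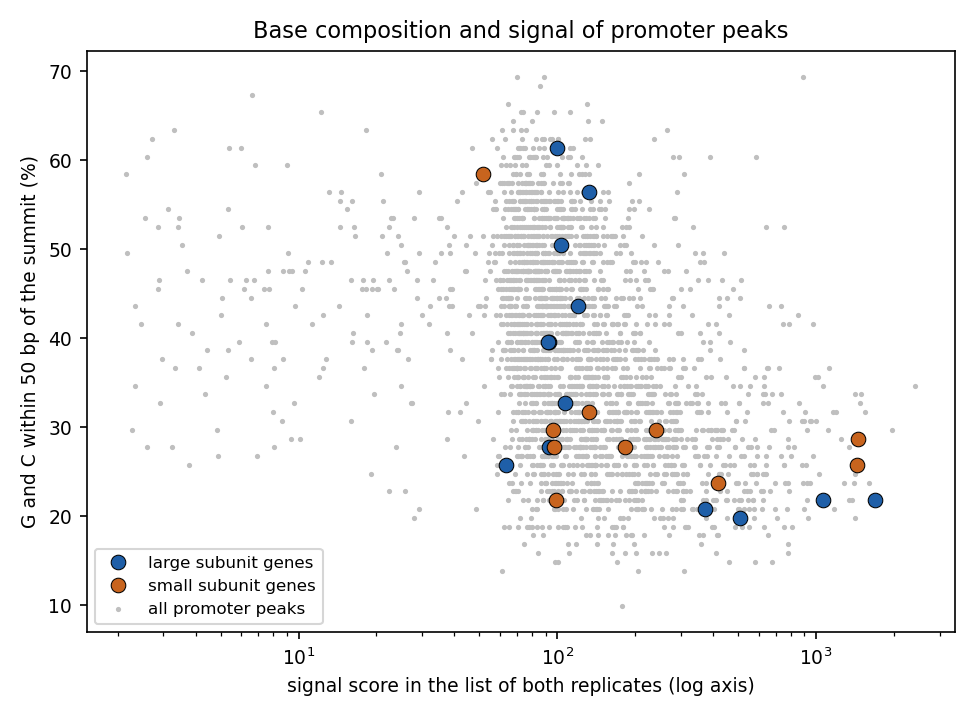
G and C content within 50 bp of the summit (percent) against the signal score in the list of both replicates (log axis). Large symbols are the 23 mitochondrial ribosomal protein genes, by subunit, and grey dots are all 2699 promoter peaks; members above a signal of 150 lie between 19.8% and 29.7%, and the weaker ones reach 61.4%.

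The weaker member peaks clustered in a narrow band of signal. mRpS26 and mRpL53, proteins particular to mitochondria, both had a signal of 133, and mRpL34, the small basic protein of the large subunit, had 119.9. Signals from 92.4 to 107.0 were found at mRpL39 (107.0), mRpL21 (103.6), mRpL18 (99.4), mRpS31 (99.1), mRpS21 (97.3), mRpS24 (96.5), mRpL32 (93.1), mRpL4 (92.6) and mRpL17 (92.4). In bacteria the relative of mRpL4 lines the peptide tunnel, that of mRpL17 lies near its exit and that of mRpL18 binds the smallest ribosomal RNA. mRpS24 corresponds, by its mammalian counterpart, to a bacterial protein at the mRNA entry. mRpL10, which anchors the stalk in bacteria, had 63.5, and mRpS11, a platform protein, had 51.5, the lowest. mRpL34 had a further peak of 83.7 at 96 bp upstream of its TSS (2R, 16098654 to 16099049), the only case of more than 1 main-list peak at a member's promoter.

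The weaker members were low in each replicate as well. mRpS26 had 85.1 in replicate 1 and 47.8 in replicate 2, mRpL53 had 80.8 and 53.0, and mRpL39 had 54.7 and 48.9. mRpL21 had 63.4 in replicate 1 and 40.2 in replicate 2, mRpS21 had 53.8 and 37.7, and mRpS24 had 68.4 and 36.8. mRpL32 had 47.6 in replicate 1 and 44.1 in replicate 2, mRpL4 had 55.3 and 51.4, and mRpL17 had 45.4 and 49.1. Each of these was below every member with a main-list signal above 150 in the same replicate. The values did not stand clear of members outside the main list, since mRpL47 had 50.7 in replicate 1 and 61.4 in replicate 2, the second of which also exceeded the 57.1 of mRpS7.

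The peaks differed in width as well as signal. The 8 strongest were between 160 and 364 bp wide, and the other 15 were all 396 bp wide, which is also the median of the main list. The lowest signal among the narrower peaks was 240, at mRpS6, and the highest among the 396 bp peaks was 183, at mRpS7.

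The replicates ordered the members in a similar way but passed different numbers of them. The list of replicate 1 (4249 peaks) gave a promoter peak to 22 of the 73 genes (30.1%), against 16.7% of all protein-coding genes. The list of replicate 2 (3424 peaks) gave 1 to 12 (16.4%), against 14.2%. In replicate 1, 11 of 47 large-subunit and 11 of 26 small-subunit genes were included, and in replicate 2, 6 and 6. Of the 23 members in the main list, 11 were in both replicates' lists, 8 in that of replicate 1 alone, 1 (mRpL18) in that of replicate 2 alone and 3 (mRpL17, mRpL10 and mRpS11) in neither. All 9 members with a signal above 150 were in both, with mRpS26 and mRpL39.

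At the 23 promoters, signals in the ranked list of replicate 1 ran from 26.6 to 1008 with a median of 77.4, and in that of replicate 2 from 25.2 to 684 with a median of 51.4. Spearman's rho between the replicates was 0.79 across these 23 genes and 0.75 across 3003 genes with a main-list promoter peak; the points share the 2 libraries. By rank within each replicate's ranked list, mRpS31 was uneven, at 2034 in replicate 1 (signal 75.3), where it passed, and 12531 in replicate 2 (signal 25.2). mRpL10 went the other way, at rank 12093 in replicate 1 (signal 26.6) and 4024 in replicate 2 (signal 43.3). The authors' conservative list of both replicates (4884 peaks) gave a promoter peak to 22 of the 73 genes (30.1%), against 19.3% of all genes. It held 20 of the 23, left out mRpS31, mRpL10 and mRpS11, and added mRpS22 and mRpL43.

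**Figure D3:**
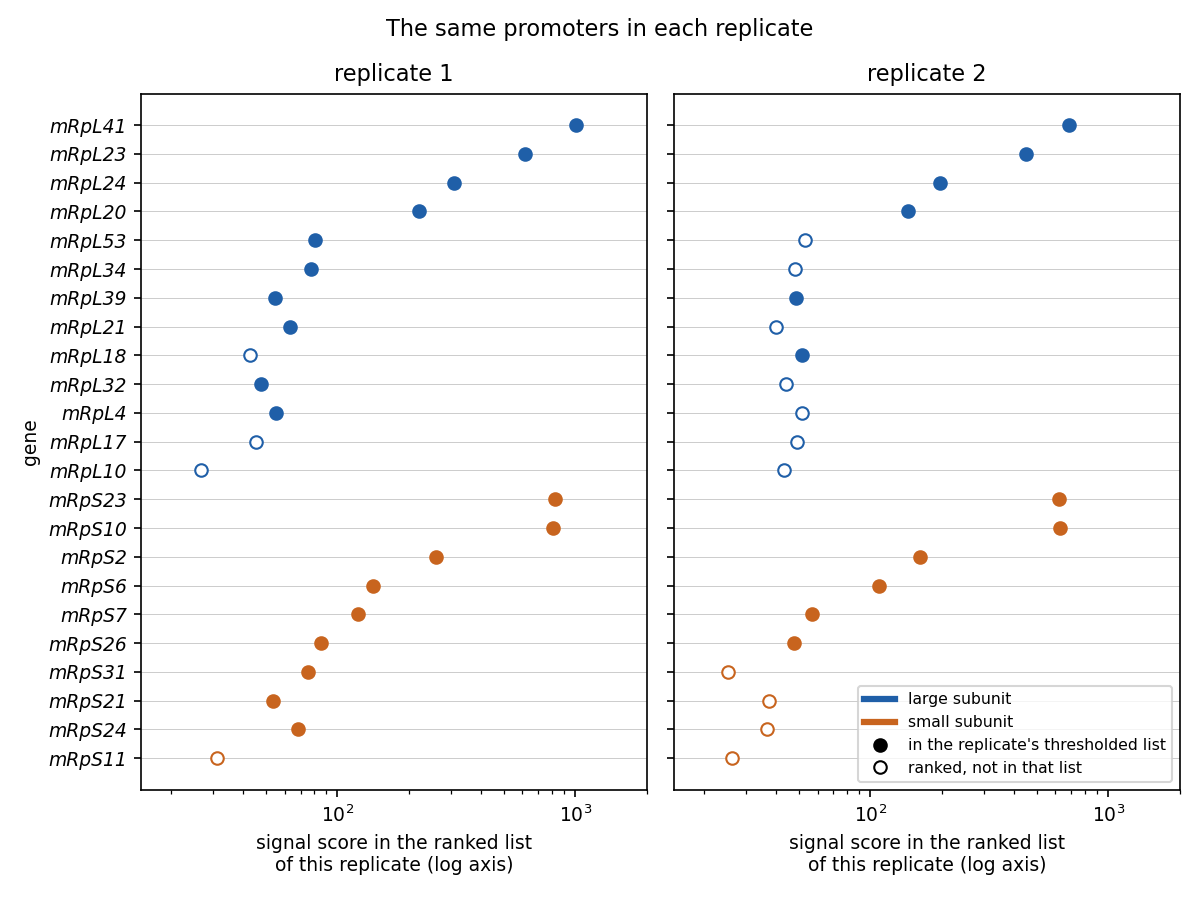
Signal score of the best promoter region in the ranked list of each replicate (log axes) for the same 23 genes in the same order, with replicates in separate panels because each list has its own scale. Filled points were in that replicate's thresholded list; 19 points are filled for replicate 1 and 12 for replicate 2.

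Most member peaks also lay at the promoter of a neighbouring gene. At 20 of the 23 genes (87.0%) the same summit also lay within 500 bp of a TSS of another protein-coding gene, against 1494 of all 3019 genes with a promoter peak (49.5%). In all 20 such a neighbour was on the opposite strand. At 17 of the 20 the summit lay upstream of the nearest TSS of each gene, between those start sites. The summit of mRpL53 was among these, although it also lay in an intron of AGO1. Over all 20 pairs the gap, taken between the start site of each gene nearest the summit, had a median of 291 bp and ran from 20 to 492 bp. The gaps of 20 bp at mRpL18, 50 bp at mRpL23 and 57 bp at mRpS11 did not hold the summit. The closest start sites of mRpL23 and CG9004 were 24 bp apart. The summit was nearer the neighbour's TSS in 11 pairs and nearer the mitochondrial ribosomal protein gene's TSS in 9. The 3 members with no protein-coding neighbour at the peak were mRpL41, mRpL4 and mRpL10.

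The pairs in which the summit sat close to the neighbour included mRpL17 with Tudor-SN, a gene of a staphylococcal nuclease family protein (340 bp upstream of mRpL17 and 59 bp upstream of Tudor-SN). They also included mRpL20 with Icmt (318 and 81 bp), mRpL34 with Dg, which encodes dystroglycan (308 and 76 bp), and mRpL21 with rept, which encodes the helicase Reptin (237 and 42 bp). mRpS24 with Apc2 (264 and 157 bp) and mRpS26 with CG13698 (244 and 186 bp) had summits nearer the middle of the gap. Summits closer to the mitochondrial ribosomal protein gene were found at mRpS6 with Cip4 (80 and 368 bp), mRpS21 with the DnaJ-family gene Droj2 (75 and 222 bp), mRpL32 with qless, a gene of coenzyme Q synthesis (59 and 205 bp), and mRpS31 with hzg (150 and 307 bp). mRpL39 with the proteasome subunit gene Prosbeta2 (89 and 196 bp) and mRpS7 with Cdk1 (168 and 232 bp) belonged to this group too. The summit at mRpL53 lay 62 bp upstream of its TSS and 108 bp upstream of AGO1, an Argonaute gene, and the TSS of mRpL53 coincided with that of CG33155.

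In 3 pairs the summit was not between the start sites. It lay in the 5′ untranslated region of mRpL23 and in the coding sequence of mRpS11 (176 bp downstream of its TSS, with Ns1, a nucleostemin-family gene, 233 bp away), and at mRpL18 it lay in the 5′ untranslated region of Taz, which encodes the cardiolipin remodelling enzyme tafazzin (156 bp downstream of the TSS of Taz). Over all 23 genes, 21 summits were upstream of the gene's nearest TSS and 2 downstream, with positions from -384 to 176 bp and a median of -141 bp. Over all 3019 genes with a promoter peak, 77.6% were upstream and the median was -118 bp. By annotation 19 summits were intergenic, 2 lay in 5′ untranslated regions, 1 in coding sequence and 1, that of mRpL53, in an intron of AGO1.

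**Figure D4:**
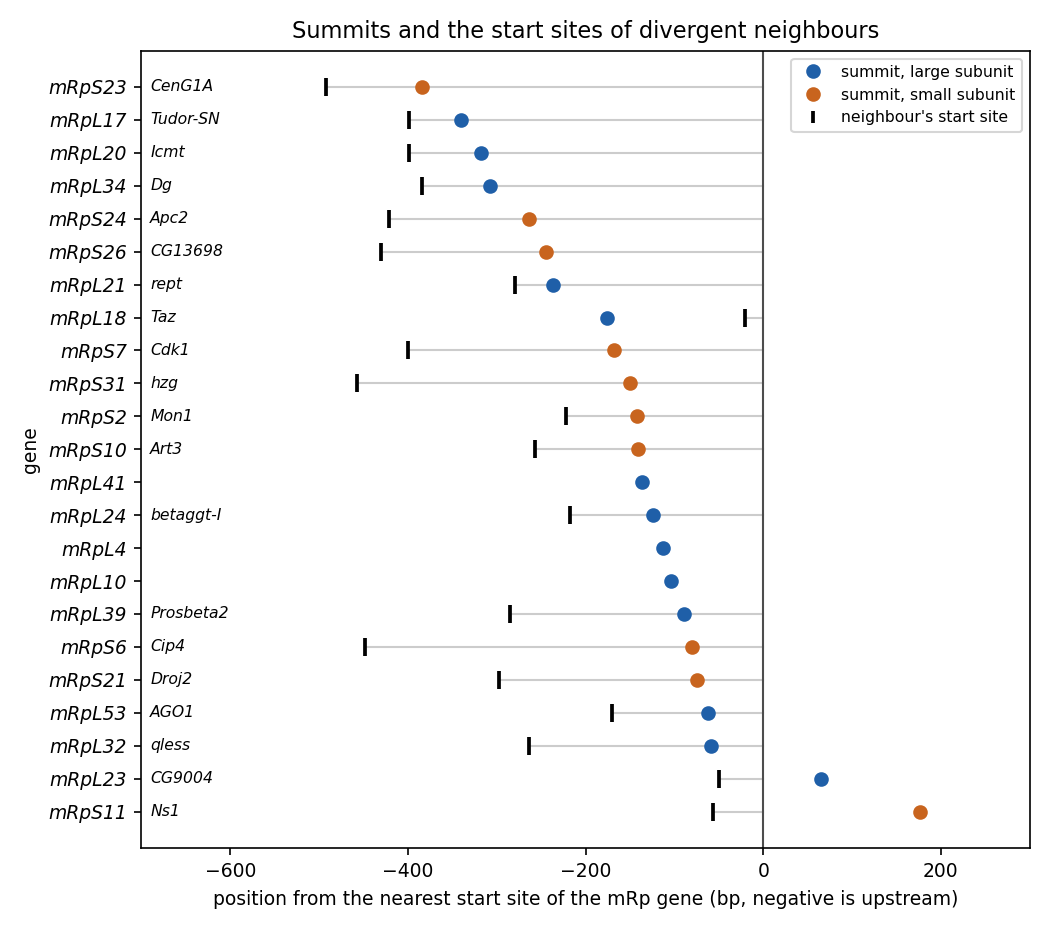
Position of the summit (circles, by subunit) from the nearest TSS of each mitochondrial ribosomal protein gene in bp, with the start site of the divergent neighbour (black ticks, named at the left). Summits lie left of 0, upstream, at 21 of 23 genes, and between the pair of start sites at 17 of the 20 genes with such a neighbour.

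Divergent promoters were common among the mitochondrial ribosomal protein genes. A protein-coding gene on the opposite strand started within 1000 bp upstream of 58 of the 73 (79.5%), against 36.2% of all protein-coding genes, with 37 of 47 in the large and 21 of 26 in the small subunit. Of the 58 members with such a partner 22 had a promoter peak (37.9%), against 34.7% of all genes with one. Of the 15 members without a partner 1, mRpL10, had a promoter peak (6.67%), against 14.2% of all genes without. When each summit was counted for the gene of its nearest TSS alone, 13 of the 73 genes had a promoter peak (17.8%), 8 in the large and 5 in the small subunit, against 16.8% of all genes.

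Most of these genes have a single start site. Of the 73 genes 67 had a single annotated TSS (91.8%), against 73.5% of all protein-coding genes. Of these 67, 21 had a promoter peak (31.3%), against 15.9% of all genes with a single TSS.

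**Figure D5:**
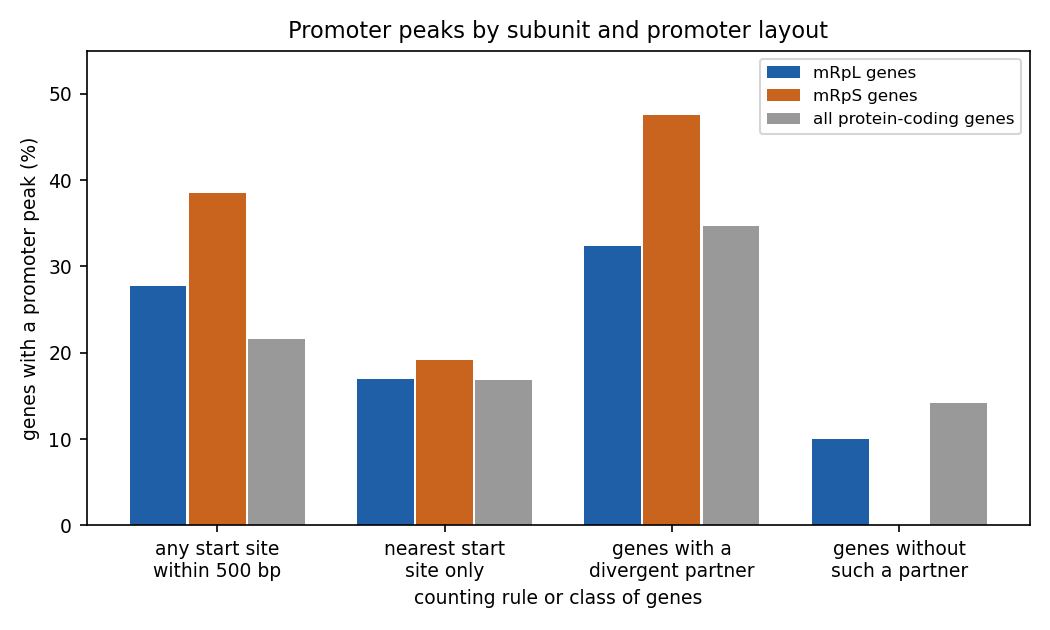
Percentage of mRpL, mRpS and all protein-coding genes with a promoter peak in the list of both replicates, under both counting rules and for genes with and without an opposite-strand gene starting within 1000 bp upstream. With every start site in reach counted the shares are 27.7%, 38.5% and 21.6%, and with the nearest alone they are 17.0%, 19.2% and 16.8%.

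By the families of the mammalian mitochondrial ribosome, 46 of the 73 belong to families shared with bacteria and 27 do not. Promoter peaks lay at 17 of the 46 (37%), namely 10 of 30 large-subunit and 7 of 16 small-subunit genes, against 21.6% of all protein-coding genes. Among the 27 they lay at 6 (22.2%), a share near that 21.6%, namely at 3 of 17 large-subunit genes (mRpL41, mRpL53 and mRpL39) and 3 of 10 small-subunit genes (mRpS23, mRpS26 and mRpS31).

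By chromosome arm, promoter peaks lay at 6 of 12 members on 2L, against 21.4% of all genes there, at 4 of 12 on 2R (21.8%), at 8 of 17 on 3L (24.2%) and at 5 of 21 on 3R (21.3%). None of the 11 members on X had one, against 19.6% of all genes on X. Of these 11, 9 had a ranked region with signals from 17.3 to 55.8, and 9 had a divergent partner.

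Of the 50 members without a promoter peak in the main list, 44 had a summit in the authors' ranked list of both replicates (105892 regions) within 500 bp of a TSS. With the others, 67 of the 73 genes had a ranked promoter summit (91.8%), against 75.5% of all protein-coding genes. The median of the best ranked signal was 53.0 over these 67 and 45.1 over all 10545 genes with one. It was 49.3 over 44 large-subunit and 55.8 over 23 small-subunit genes. Among the 44 that did not reach the main list, signals ran from 7.89 to 105.0 with a median of 39.1, against 34.7 over all such genes, and 28 of the 44 summits were upstream, against 46.8% over all such genes. The 6 with no ranked summit were mRpL30, mRpL33, mRpL40, mRpS5, mRpS17 and mRpS35.

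Of the 44 with a ranked summit only, the strongest was mRpL47, a counterpart of a tunnel-exit protein, with a ranked signal of 105.0 at 104 bp upstream of its TSS (3R, 9515814 to 9516209). It had an IDR score of 1000, above the lowest score of 830 in the main list, and a −log10 IDR of 3.02, but was absent from the main list. It was 1 of 169 ranked regions on the arms that met this score and were not in the main list, and the sources used here do not describe the step that left them out. Replicate 1 gave it 50.7 and replicate 2 gave it 61.4, and it was in neither replicate's own list.

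Next came mRpS22 with a signal of 83.4 and a score of 710, mRpL43 with 76.0 and 403, mRpS18B with 73.4 and 76, mRpL50 with 63.0 and 482, and mRpL55 with 61.9 and 76. These were followed by mRpL37 with 59.1 and 827, just under the lowest score of the main list, mRpS30 with 55.8 and 80, mRpL3 with 54.5 and 643, and mRpL11 with 54.5 and 686. mRpL3 lies by the peptidyl transferase centre and mRpL11 at the base of the stalk in bacteria. In all, 12 members outside the main list had a ranked signal above the 51.5 of mRpS11, which was in that list with a score of 852, so the order by signal was not the order of inclusion. Of the genes outside the main list, mRpS22, mRpS18B and mRpL28 were in the list of replicate 1 and none was in that of replicate 2.

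Words that transcription factors are known to bind were counted in the promoters of all 73 genes, from 250 bp before to 50 bp after the gene's start, on either strand. CAGCTG, an E-box and the core of a known fly core promoter motif, was in 40 of the 73 promoters (54.8%), against 17.7% of all 13968. It was in 27 of 47 large-subunit promoters (57.4%) and 13 of 26 small-subunit promoters, against 8.05% for cytosolic ribosomal protein genes and 23.9% for genes of the respiratory chain and ATP synthase. In 35 of the 40 the word started within 50 bp of the TSS (87.5%), against 52.8% of all promoters that held it. The short windows show it at mRpL21, which had a main-list peak, and at mRpL14 and mRpS9, which did not. From the TSS the word lies at -23 bp at mRpL21, -72 bp at mRpL14 and -60 bp at mRpS9. The words at mRpL14 and mRpS9 are thus not among those within 50 bp. Capitals mark the word, and each window of 36 bases overlaps no annotated exon.
mRpL21, chr3L:19255064-19255099, minus strand: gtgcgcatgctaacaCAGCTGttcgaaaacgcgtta
mRpL14, chrX:2344701-2344736, minus strand: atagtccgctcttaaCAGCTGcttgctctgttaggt
mRpS9, chr3R:7902707-7902742, minus strand: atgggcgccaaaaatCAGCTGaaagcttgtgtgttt

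Promoter peaks occurred with and without this word. Of the 40 members with CAGCTG 12 had a promoter peak, and of the 33 without it 11 did (33.3%). Over all genes the shares were 28.8% with the word and 20.1% without. At the 12 promoters the word lay 43 to 353 bp from the summit, with a median of 118 bp, and within 50 bp of the summit CAGCTG occurred at mRpL34, whose summit lies outside the promoter window, and at mRpL32 alone.

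The Dref site TATCGATA, bound by a factor of growth genes, was in 15 of the 73 promoters (20.5%), against 9.36% of all. The shares were 29.9% for cytosolic ribosomal protein genes and 10.2% for genes of the respiratory chain and ATP synthase. Of the 23 members with a main-list peak 7 held the site, against 13.2% of all genes with a promoter peak. It was within 50 bp of the summit at mRpL32 only (4.35% of 23, against 2.30% of all promoter summits). TATAAAA was in 23 promoters (31.5%, against 24.2%), GGTATTT in 8 (11.0%, against 9.89%) and the M1BP word GGTCACAC in 8 (11.0%, against 7.70%). The ATF6 core TGACGTGG and the cyclic AMP response element TGACGTCA were in 0 of the 73 promoters, against 0.372% and 0.437% of all. Within 50 bp of the summits TGACGTGG was likewise at 0 of 23, against 0.0741% of all promoter summits. ACGT, the centre of many leucine zipper sites and contained in TGACGTGG, TGACGTCA and CACGTG, was in 35 promoters (47.9%, against 48.5%), and GAGAG was in 12 (16.4%, against 29.8%). CACGTG was in 5 (6.85%, against 4.23%) and GCGCATGC in 1 (1.37%, against 1.05%). The ETS word CCGGAAG and the Zelda word CAGGTAG were in none, against 1.10% and 1.64% of all. These counts describe letters in the windows and were not tested.

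Other genes of mitochondrial gene expression were set beside the ribosomal ones in short lists, whose shares stand against 21.6% of all protein-coding genes. These lists are small, so 1 gene more or less moves a share widely. Of 12 translation factor and amidotransferase genes, 1 had a promoter peak, GatA, a subunit gene of the enzyme that makes glutaminyl-tRNA, with a signal of 239 shared with P5cr (8.33% of the list). The elongation factor genes mEFTu1, mEFTu2, mEFTs and mEFG1 had ranked signals of 40.6, 69.3, 42.8 and 32.8 and were not in the main list. Of 16 mitochondrial aminoacyl-tRNA synthetase genes 2 had a peak (12.5%), ArgRS-m (107.1, shared with CG17816) and CysRS-m (78.0, shared with O-fut1). Of 12 genes for mitochondrial DNA upkeep and transcription 3 did (25%), the protease gene Lon (742, shared with PIG-F), the single-strand binding protein gene mtSSB (209) and mtDNA-helicase (73.4). TFAM, which packages mitochondrial DNA, had a ranked signal of 62.0 and PolrMT, the mitochondrial RNA polymerase, 55.1.

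A last list was drawn up for mitochondrial RNA processing and ribosome assembly. In it 9 names, among them Mtg1, Noa1 and Nsun4, matched no symbol or synonym and were not examined. Of the 9 genes that were found 3 had a promoter peak (33.3%, against 21.6% of all protein-coding genes). They were PNPase, a ribonuclease gene with a signal of 1489, RNaseZ, which cuts tRNA ends (108.6, shared with CG12909), and the poly(A) polymerase gene MTPAP (79.9). The ribosomal protein genes tko and bonsai belong to the small subunit but carry other symbols, and they had ranked signals of 25.9 and 35.3 and no main-list peak.

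Against the gene sets nearest in function, the 31.5% of mitochondrial ribosomal protein genes stood below the 67 of 87 cytosolic ribosomal protein genes (77.0%) and above the 20 of 88 genes of the respiratory chain and ATP synthase (22.7%). Among genes with a divergent partner the shares of these 3 sets, in the same order, were 37.9%, 82.7% and 38.6%. Among genes without one they were 6.67%, 68.6% and 6.82%, so within each layout the first and last sets were close. With the nearest TSS alone, the shares were 17.8% for mitochondrial ribosomal protein genes, 73.6% for cytosolic ribosomal protein genes and 18.2% for genes of the respiratory chain and ATP synthase. No test was run on these differences.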

How the data were processed

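The authors deposited peak lists on dm6 for each replicate and for both. Per the text files deposited with the lists, they derive from dm6 alignments and a control file, the thresholded ones also from a further file that is not described; which aligner and peak caller were used is not given in the sources used here. The deposited values used were the signal score of each peak, its IDR score, and for ranked regions −log10 IDR. The conservative list's ranked regions and the control were not used here.

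From these lists, promoter peaks were assigned with TSSs of protein-coding genes from Ensembl release 115 (BDGP6 version 54); where a gene had several, the peak of highest signal was taken. Sequences came from the RefSeq copy of Release 6, in which the last ranked peak on each arm fell within the arm. The assignment was tested on simulated data. Figures were drawn with matplotlib 3.10.9 and values computed with SciPy 1.17.1, pandas 2.3.3 and numpy 2.4.6 under Python 3.11.15.

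The members, gene lists and 13 words were chosen with earlier results of these data known, so counts stand beside those of all genes and no test was run. Every member with a main-list peak was named, with the 10 others of highest ranked signal, neighbours at shared peaks and listed mitochondrial genes with a peak. Other genes named were chosen after their values were seen. Listed names that matched no symbol or synonym (1 to 9 in each of 4 lists) were left out. Alternatives covered the window, the list, the counting rule and each replicate alone. Depth is unknown, so no interval is given.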

Additional observations from a re-analysis of the deposited data

How the results depend on the processing

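The count of 23 members with a promoter peak stayed within 1.5 times under windows of 250 and 1000 bp, the conservative list, all ranked regions with a score of 830 or more, and 1 TSS per gene; over all protein-coding genes the share was 17.7% with the 250 bp window and 25.4% with the 1000 bp window, against 21.6% with 500 bp. With peaks below the median signal of the main list left out, 14 members and 13.6% of all genes had a peak, with 8 mRpL, 6 mRpS, 13 sharing a peak and a median signal of 306.1. With the peak interval required to overlap a TSS, 15 members and 14.4% of all genes had a peak, with 5 mRpS, 6 sharing a peak and a median position of -104 bp. With the nearest TSS alone, 13 members and 16.8% of all genes had one, with 8 mRpL, 5 mRpS and a median position of -89 bp; only 1 peak, tied between genes, was then shared, by construction. A 250 bp window gave 13 sharing members and a median position of -113 bp, a 1000 bp window -146 bp, and the conservative list and the score-based list -139 bp each. With each replicate's list alone, the counts ran from 12 to 22 for all members (14.2% and 16.7% of all genes). They ran from 6 to 11 for mRpL, 6 to 11 for mRpS and 11 to 20 for shared peaks, and the lower counts are those of replicate 2. The median position was -139.5 bp in replicate 1 and -137.5 bp in replicate 2. The median signal was 79.12 over the members in the list of replicate 1 and 153.3 over those in that of replicate 2. These medians are not compared, since each list has its own scale and its own members. The cause of these shifts was not tested. Within 100 bp of the summit, an alternative added after the data were seen, AATTAA was at 15 of 23 members and 34.0% of promoter summits. No paired analysis was possible because there is 1 group and no contrast. With 2 replicates, unknown depth and a control library not analysed here, absence from a list does not show that a promoter was unbound.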
